A study of Mus musculus with 8 samples.

Results

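The 10 genes described here are Rasgrp1, Adam19, Thbd, Sla, Rsph1, Ahnak, Clec2d, Reln, Hvcn1 and Tmem229b, chosen because their transcripts fell far in mouse λ820 lymphoma cells given a BET inhibitor, an ATR inhibitor or both. They were found by platform symbol and are 10 of the 7947 genes tested. Their 17 probes were all examined, and 12 of these passed the filter on detection. The falls against DMSO chose the genes, so every value against DMSO below is a description without a test, and the choice came with no stated threshold of size.

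λ820 is a mouse lymphoma line driven by Myc. Its cells were kept for 24 h with 10 µM RVX2135, which blocks the bromodomains of BET proteins, with 10 µM VE-821, which inhibits the kinase ATR, with both drugs at those doses, or with the solvent DMSO alone at a dilution of 1 to 1000. The series asks how the drugs act together. Each of these 4 groups had 2 one-colour Illumina bead arrays, so n = 2 per group throughout, all from the same line and medium. The labels do not say whether replicates were separate cultures, and the spread behind each p-value may thus be a technical one. In RNA from a bulk culture, fewer cells of a type and less RNA per cell cannot be told apart.

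BET proteins read acetylated histones and help to keep strongly active genes transcribed, among them many that define a lymphoid cell. ATR answers stalled replication forks and holds back the cell cycle while they are repaired. Most of the 10 genes encode proteins of the cell surface or just beneath it: a Ras activator and an antigen receptor adaptor, a sheddase, a coagulation receptor, a lectin, an extracellular matrix protein, a proton channel, a membrane protein of unclear role and a membrane scaffold, along with Rsph1 of the ciliary axoneme.

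Promoter sequences are shown first for the genes on which the account turns: Reln, Clec2d and Tmem229b, which fell moderately with each drug and much further with both, and Adam19 and Rasgrp1, which were near or below background with a single drug. They are the 250 bases before an annotated start, on the gene's own strand, from RefSeq on GRCm38.p6, where 6 of the 10 genes matched (Rsph1, Sla, Thbd and Hvcn1 did not). Capitals mark the motif letters found on either strand among 9 that were searched, which are the E-box (CACGTG), the GC box (GGGCGG), the CCAAT box (CCAAT), the TATA box (TATAAA), the octamer (ATTTGCAT), the ETS core (CCGGAA), the AP-1 motif (TGACTCA), the GATA motif (GATAAG) and the RUNX motif (TGTGGT). The Reln promoter lies at chr5:22344706-22344955 on the minus strand, that of Clec2d at chr6:129180365-129180614 on the plus strand, and that of the first of 2 Tmem229b starts at chr12:79007278-79007527 on the minus strand. The first of 3 Adam19 starts lies behind chr11:46054252-46054501 on the plus strand, and the Rasgrp1 promoter at chr2:117342878-117343127 on the minus strand.
Reln: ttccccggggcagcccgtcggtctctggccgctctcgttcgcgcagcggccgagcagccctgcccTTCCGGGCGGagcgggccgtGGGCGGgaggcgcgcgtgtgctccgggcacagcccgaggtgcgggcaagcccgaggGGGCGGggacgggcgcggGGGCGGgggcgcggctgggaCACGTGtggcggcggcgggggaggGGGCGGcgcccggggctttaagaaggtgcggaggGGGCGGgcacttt
Clec2d: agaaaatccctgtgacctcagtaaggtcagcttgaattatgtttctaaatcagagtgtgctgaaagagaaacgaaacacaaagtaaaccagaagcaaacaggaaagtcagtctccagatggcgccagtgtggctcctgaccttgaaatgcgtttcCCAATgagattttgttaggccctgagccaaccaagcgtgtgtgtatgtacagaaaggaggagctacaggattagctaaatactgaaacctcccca
Tmem229b: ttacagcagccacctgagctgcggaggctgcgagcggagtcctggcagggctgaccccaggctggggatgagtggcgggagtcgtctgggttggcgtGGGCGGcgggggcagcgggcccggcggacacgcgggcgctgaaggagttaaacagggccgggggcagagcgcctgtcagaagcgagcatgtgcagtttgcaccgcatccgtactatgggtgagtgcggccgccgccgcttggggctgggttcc
Adam19: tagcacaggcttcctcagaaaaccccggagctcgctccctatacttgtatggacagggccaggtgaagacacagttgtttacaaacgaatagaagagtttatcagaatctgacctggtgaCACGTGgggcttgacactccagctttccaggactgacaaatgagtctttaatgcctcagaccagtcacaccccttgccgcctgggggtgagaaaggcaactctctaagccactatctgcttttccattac
Rasgrp1: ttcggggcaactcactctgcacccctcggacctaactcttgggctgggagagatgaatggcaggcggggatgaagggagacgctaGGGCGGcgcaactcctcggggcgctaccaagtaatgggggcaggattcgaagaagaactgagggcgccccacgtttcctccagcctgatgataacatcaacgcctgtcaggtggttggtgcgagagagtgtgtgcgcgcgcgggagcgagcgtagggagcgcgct

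The E-box, the letters that MYC and MAX bind, stood 71 to 66 bases before the Reln start and 130 to 125 bases before the first Adam19 start, and 6.02% of the 32851 promoters in the table held it. The GC box occurred 6 times before Reln, the one farthest from the start overlapping an ETS core on the other strand. It occurred once before Rasgrp1, once before this Tmem229b start and 3 times, on the other strand, before Ahnak, against 32.7% of all promoters with at least one. The Clec2d window held a CCAAT box at 95 to 91 bases before the start, as did 33.8% of promoters, and no GC box. A match describes these letters and is not a binding site. No single motif of the 9 occurred in all of the Reln, Clec2d and Tmem229b windows printed here.

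On the 8 arrays, between 11012 and 11478 of 25697 probes were detected, and replicate arrays correlated at 0.995 to 0.996 over tested genes. Levels are given below as log2 normalized intensity, on which the lowest detected signal of an array lay between 4.64 and 4.71. Of 10 B lineage markers, 8 had a probe, and Cd79a, Cd79b, Cd22, Ebf1 and Blnk were detected on every array, while Ms4a1 and Pax5 were below background on all of them. The summed intensity of the 8 was 4182 and 3602 with RVX2135, 4161 and 3543 with VE-821, 732 and 645 with both drugs, and 9776 and 8337 in DMSO, so it fell with the genes described here, and its part in their falls was not tested. The T cell markers Cd4 and Cd8a and the myeloid markers Itgam, Lyz2 and S100a8 were below background on all arrays. So were the endothelial markers Cdh5, Vwf and Tek. Other markers on these lists were detected. Cd3d, Cd3g and Klrb1c were detected on both DMSO arrays, and Cd3e on 1 RVX2135 and 1 VE-821 array. Klrb1c was also detected on 1 RVX2135 array and Cd3d on 1 combination array. Tyrobp and Fcgr3 were detected on both VE-821 arrays and 1 DMSO array. Klf1 was detected on both VE-821 and both DMSO arrays and on 1 combination array. Pecam1 was detected in every group, and Kdr on 1 VE-821 array. Perforin (Prf1) was detected in all groups, and the T and NK sum, over 11 of 12 markers with a probe, was 519 and 483 with RVX2135, 553 and 631 with VE-821, 2238 and 2617 with both drugs, and 462 and 391 in DMSO. Prf1 was the only 1 of these markers detected on both combination arrays, so the sum there does not stand for the set. Of the 4 tested, 1 was called higher and 2 lower with both drugs than in DMSO (median -0.28). Of all tested genes, 28.9% were called higher and 30.8% lower. The part of this sum in the results was not tested.

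All 10 genes were lower on both arrays than on either DMSO array, in each of the 3 treatments. Of all tested genes, 33.2% did so with RVX2135, 33.9% with VE-821 and 40.8% with both drugs. Since the genes were chosen on these contrasts, nothing is read from that count. The genes differed among themselves in which drug lowered them and in what the second drug added. Those patterns are described with the contrasts between treatments. Each of these is the difference between contrasts against DMSO that chose the genes, so their tests are not free of that choice.

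**Figure D1:**
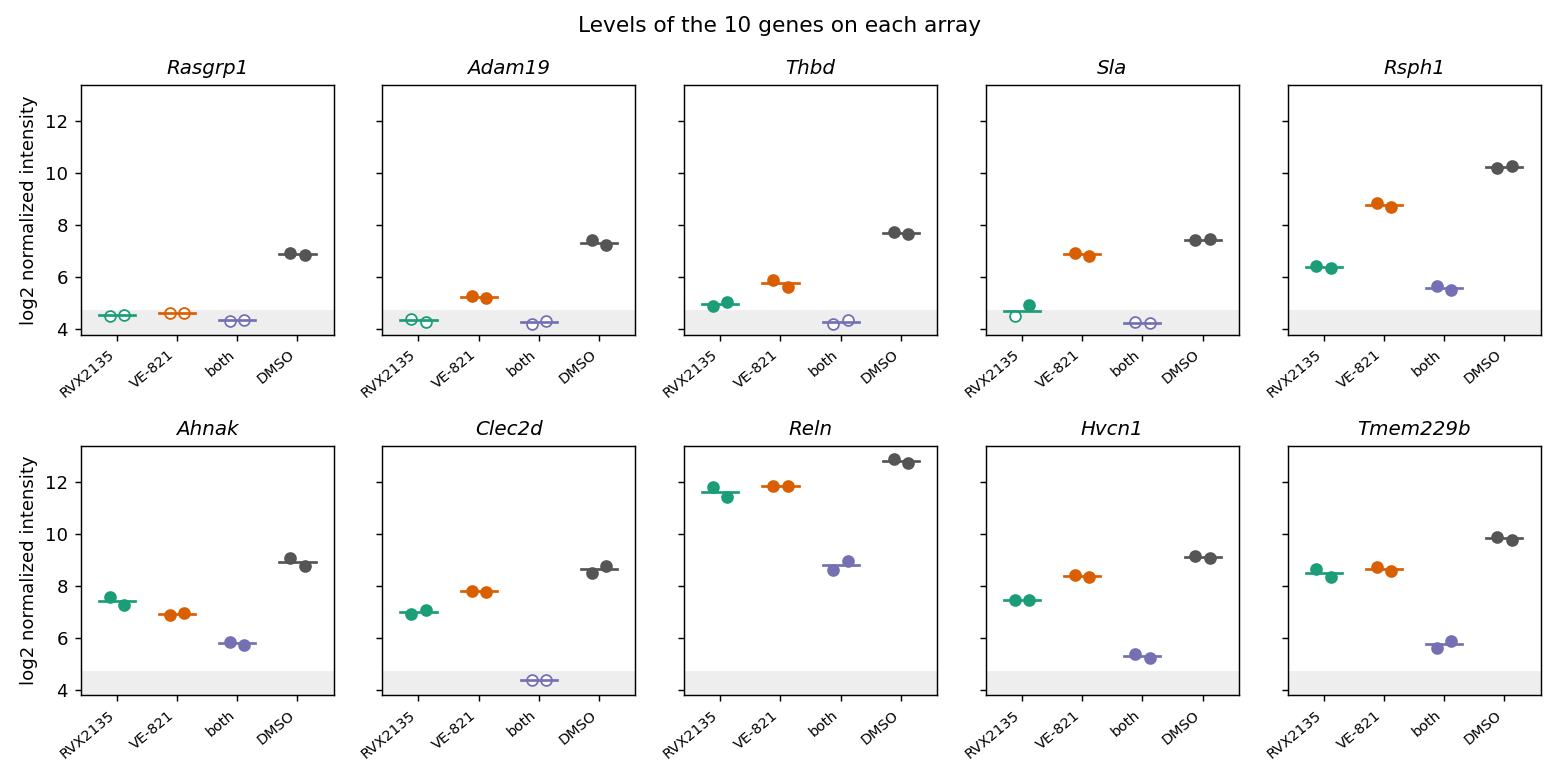
Log2 normalized intensity of the 10 genes on each of the 8 arrays, 2 per group, with a line at each group mean. Open symbols mark arrays on which the probe was not detected, and the grey band ends at the highest of the arrays' lowest detected signals. Rasgrp1 was detected in DMSO alone, whereas Reln, Rsph1, Hvcn1, Tmem229b and Ahnak were detected on all 8 arrays.

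Rasgrp1, the diacylglycerol-gated exchange factor that switches on Ras in lymphocytes, was detected on the 2 DMSO arrays alone. It read 4.53 and 4.55 with RVX2135, 4.62 and 4.61 with VE-821, 4.32 and 4.37 with both drugs, and 6.92 and 6.87 in DMSO. The 6 treated arrays sat together at background, well under both DMSO arrays. As background-subtracted intensity the treated arrays gave between 0.19 and 8.87, against 130 and 103 in DMSO. The fall was thus at least 4.57-fold with RVX2135, at least 4.73-fold with VE-821 and at least 4.63-fold with both drugs. With every treated group below background, no fold between treatments is given, and the array sets no order among them. The 2 other Rasgrp1 probes were detected on no array.

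Adam19, a membrane-anchored metalloprotease that sheds ligands such as neuregulin from the cell surface, was measurable in VE-821 and DMSO. It read 4.42 and 4.28 with RVX2135, 5.27 and 5.21 with VE-821, 4.23 and 4.32 with both drugs, and 7.43 and 7.25 in DMSO. The RVX2135 and combination arrays overlapped at background, the VE-821 arrays stood just above it, and DMSO was clear of all of them. Adam19 was at least 6.21-fold lower with RVX2135, 4.28-fold lower with VE-821 and at least 6.30-fold lower with both drugs than in DMSO. It was at least 1.45-fold lower with RVX2135 than with VE-821 (limma adjusted p = 1.31e-04). With both drugs it was at least 1.47-fold lower than with VE-821 (limma adjusted p = 2.53e-05). Here and below, a p beside a bound tests the fitted log2 difference and not the bound. For Adam19 the fitted differences were -0.89 and -0.96, which depend on the floor of the array. Whether VE-821 lowered it further in the presence of RVX2135 could not be measured, since both groups were below background.

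Thbd encodes thrombomodulin, the surface receptor that turns thrombin towards activating protein C. Its levels were 4.90 and 5.05 with RVX2135, 5.91 and 5.64 with VE-821, 4.22 and 4.35 with both drugs, and 7.73 and 7.65 in DMSO. The 4 groups formed 4 separate steps, with the combination below background and RVX2135 just above it. Thbd was 6.56-fold lower with RVX2135, 3.77-fold lower with VE-821 and at least 8.05-fold lower with both drugs than in DMSO. The log2 difference between RVX2135 and VE-821 was -0.80 ± 0.12 (SE, limma adjusted p = 5.63e-04). The combination was at least 1.23-fold below RVX2135 (limma adjusted p = 5.68e-04) and at least 2.14-fold below VE-821 (limma adjusted p = 1.92e-06). Thrombomodulin marks endothelium. Among other endothelial markers, Cdh5, Vwf and Tek were below background on every array, and Kdr was detected on 1 VE-821 array. Pecam1 was detected on 1 of the 2 combination arrays and on both arrays of each other group. The summed intensity of all 11 stromal and endothelial markers, of which Fbln1 and Pecam1 were detected in every group, was 50.6 and 37.2 with RVX2135, 94.4 and 90.7 with VE-821, 6.68 and 16.3 with both drugs, and 181.6 and 149.2 in DMSO. This sum was lower in each treatment, as Thbd was, and its part in the fall of Thbd was not tested.

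Sla, the Src-like adaptor that with CBL ligases takes antigen receptors off the surface, responded to RVX2135 far more than to VE-821. It read 4.51 and 4.93 with RVX2135, 6.94 and 6.82 with VE-821, 4.28 and 4.25 with both drugs, and 7.43 and 7.48 in DMSO. VE-821 arrays sat close under DMSO, while RVX2135 arrays were at the edge of background, with 1 of the 2 detected, and combination arrays were below it. The fall was 6.67-fold with RVX2135, 1.49-fold with VE-821 and at least 6.82-fold with both drugs. The log2 difference between RVX2135 and VE-821 was -2.17 ± 0.13 (SE, limma adjusted p = 8.53e-07). With both drugs Sla was at least 4.59-fold lower than with VE-821 (limma adjusted p = 6.59e-08). Between the combination and RVX2135 the bound was only 1.02-fold (limma adjusted p = 0.0144), and this call was lost without the second RVX2135 array (adjusted p = 0.142), without the second combination array (0.0542), with the authors' normalized values (0.24) and with an offset of 50 (0.0809). Of the 2 other Sla probes, neither was detected on both arrays of any group.

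Rsph1 encodes a radial spoke head protein of motile cilia, and its transcript had the largest fall of the 10 genes that was measured on every array. The levels were 6.42 and 6.38 with RVX2135, 8.85 and 8.71 with VE-821, 5.68 and 5.50 with both drugs, and 10.19 and 10.29 in DMSO. As intensity these were 69.7 and 60.6 with RVX2135, 454 and 426 with VE-821, 33.4 and 23.4 with both drugs, and 1409 and 1296 in DMSO. The groups did not overlap, and RVX2135 sat much closer to the combination than VE-821 did. Rsph1 was 14.3-fold lower with RVX2135, 2.76-fold lower with VE-821 and 25.1-fold lower with both drugs than in DMSO. The difference between RVX2135 and VE-821 was -2.38 ± 0.11 (SE, limma adjusted p = 5.87e-08). Adding VE-821 to RVX2135 changed Rsph1 by -0.81 ± 0.11 (SE, limma adjusted p = 9.51e-05), and adding RVX2135 to VE-821 changed it by -3.19 ± 0.11 (SE, limma adjusted p = 8.99e-09).

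Ahnak encodes a giant scaffold beneath the plasma membrane that binds annexin 2 with S100a10. It was the one gene of the 10 that fell further with VE-821 than with RVX2135 by the test between them. The levels were 7.57 and 7.29 with RVX2135, 6.88 and 6.96 with VE-821, 5.87 and 5.72 with both drugs, and 9.09 and 8.79 in DMSO. Each group was separate, with VE-821 between RVX2135 and the combination. Ahnak was 2.85-fold lower with RVX2135, 4.06-fold lower with VE-821 and 8.84-fold lower with both drugs than in DMSO. RVX2135 left it 0.51 ± 0.13 (SE) log2 units above VE-821 (limma adjusted p = 0.0162), a call lost without the first RVX2135 array (adjusted p = 0.121), without the first VE-821 array (0.0901) and with the authors' normalized values (0.052). The combination differed from RVX2135 by -1.63 ± 0.13 (SE, limma adjusted p = 2.42e-06) and from VE-821 by -1.12 ± 0.13 (SE, limma adjusted p = 3.94e-05). A second Ahnak probe did not pass the filter.

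In the remaining 4 genes the level, by the probe that stands for each, was at most 3.15-fold lower with either drug alone and at least 14.0-fold lower with both. Clec2d encodes a C-type lectin-like ligand that restrains NK cells through Klrb1b. It read 6.93 and 7.08 with RVX2135, 7.83 and 7.76 with VE-821, 4.37 and 4.39 with both drugs, and 8.50 and 8.79 in DMSO. Single-drug arrays stayed well above background, whereas the combination arrays were both below it. Against DMSO Clec2d was 3.11-fold lower with RVX2135, 1.80-fold lower with VE-821 and at least 15.5-fold lower with both drugs. The combination was at least 4.99-fold below RVX2135 (limma adjusted p = 4.47e-08) and at least 8.65-fold below VE-821 (limma adjusted p = 8.99e-09). On the log2 scale RVX2135 differed from VE-821 by -0.79 ± 0.12 (SE, limma adjusted p = 5.56e-04).

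Reln encodes reelin, a secreted matrix glycoprotein known for guiding migrating neurons through the receptors Vldlr and Lrp8. Its intensity was 3526 and 2593 with RVX2135, 3691 and 3713 with VE-821, 364 and 398 with both drugs, and 8170 and 6754 in DMSO. On the log2 scale it read 11.79 and 11.42 with RVX2135, 11.85 and 11.85 with VE-821, 8.64 and 8.96 with both drugs, and 12.91 and 12.73 in DMSO. The signal was far above background in every group, so the fall with both drugs was measured and is not a bound. Both single drugs sat side by side beneath DMSO, and the combination lay far beneath both. Reln was 2.31-fold lower with RVX2135, 1.96-fold lower with VE-821 and 16.2-fold lower with both drugs. RVX2135 and VE-821 were not shown to differ (difference -0.24, 95% interval -0.56 to 0.08, limma adjusted p = 0.251). The combination differed from RVX2135 by -2.81 ± 0.15 (SE, limma adjusted p = 1.02e-07) and from VE-821 by -3.05 ± 0.15 (SE, limma adjusted p = 4.53e-08).

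Hvcn1 encodes the voltage-gated proton channel, which in B cells is tied to antigen receptor signalling and lets the NADPH oxidase keep working. It read 7.47 and 7.46 with RVX2135, 8.42 and 8.36 with VE-821, 5.41 and 5.23 with both drugs, and 9.17 and 9.08 in DMSO. The 4 groups were separate, with VE-821 nearest to DMSO. Hvcn1 was 3.15-fold lower with RVX2135, 1.66-fold lower with VE-821 and 14.0-fold lower with both drugs than in DMSO. On the log2 scale RVX2135 differed from VE-821 by -0.92 ± 0.10 (SE, limma adjusted p = 7.09e-05). The combination differed from RVX2135 by -2.15 ± 0.10 (SE, limma adjusted p = 6.11e-08) and from VE-821 by -3.07 ± 0.10 (SE, limma adjusted p = 8.99e-09). A second Hvcn1 probe, which fell below background with both drugs, gave log2 changes against DMSO of -1.43 with RVX2135 and -0.69 with VE-821, beside -1.66 and -0.73 for the first.

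Tmem229b encodes a multipass membrane protein whose role is not well known. The levels were 8.65 and 8.35 with RVX2135, 8.72 and 8.58 with VE-821, 5.63 and 5.90 with both drugs, and 9.91 and 9.79 in DMSO. RVX2135 and VE-821 arrays overlapped, and the combination stood clear beneath them. Against DMSO Tmem229b was 2.54-fold lower with RVX2135, 2.30-fold lower with VE-821 and 16.95-fold lower with both drugs. The single drugs were not shown to differ (difference -0.15, 95% interval -0.44 to 0.14, limma adjusted p = 0.45). The combination differed from RVX2135 by -2.74 ± 0.13 (SE, limma adjusted p = 6.11e-08) and from VE-821 by -2.88 ± 0.13 (SE, limma adjusted p = 3.58e-08). A second, dimmer probe of this gene changed against DMSO by -1.30 with RVX2135 and -0.99 with VE-821, beside -1.35 and -1.20 for the first. With both drugs it read 4.685 and 4.435, at the edge of background, and was detected on 1 of the 2 arrays. Its change there of -2.58 against DMSO, beside -4.08 for the first, is thus limited by the floor of the array. The same limit holds for its difference between the combination and RVX2135, -1.28 ± 0.16 (SE, limma adjusted p = 6.16e-05).

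**Figure D2:**
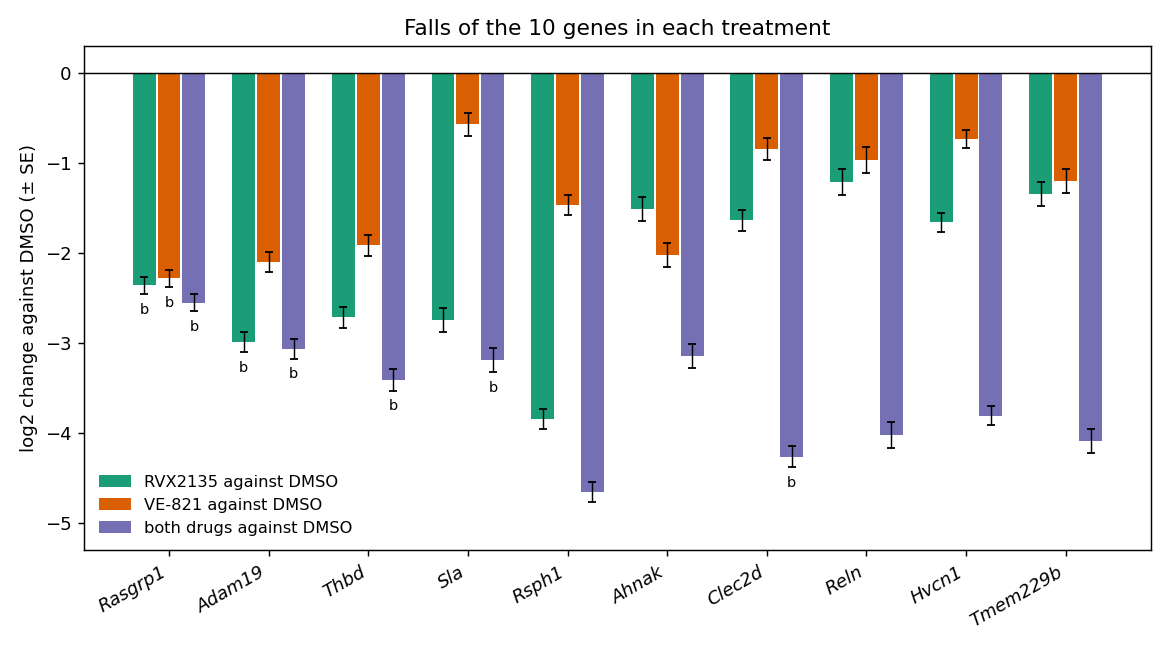
Log2 change against DMSO of the 10 genes with RVX2135, VE-821 and both drugs, with bars at the fitted value and whiskers of 1 SE from limma. The letter b marks a treatment in which the gene was below background on both arrays, where the bar depends on the floor of the array and is not a bound. Clec2d, Reln, Hvcn1 and Tmem229b had short bars with each drug and long ones with both.

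Between the single drugs, 6 of the 10 genes were called lower with RVX2135 than with VE-821, where 13.3% of all tested genes were called lower. These were Rsph1, Sla, Thbd, Adam19, Clec2d and Hvcn1. Ahnak was the 1 gene called higher with RVX2135, against 13.2% of tested genes, Reln and Tmem229b were not called, and Rasgrp1 was below background in both. The combination was called lower than RVX2135 in 8 genes, against 26.4% of tested genes, with Adam19 and Rasgrp1 below background in both groups. It was called lower than VE-821 in 9 genes, against 25.8% of tested genes, with Rasgrp1 below background in both groups. The choice of genes with large falls against DMSO favours such calls, so nothing is read from these counts.

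The places of the measured falls among all 7947 genes, in the order of the fitted log2 changes against DMSO, are given as a description. They rest on the probe that stands for each gene. With RVX2135 Rsph1 was at place 4, Sla 6, Thbd 7, Hvcn1 27, Clec2d 31, Ahnak 38, Tmem229b 52 and Reln 71. With VE-821 Adam19 was at place 4, Ahnak 5, Thbd 7, Rsph1 12, Tmem229b 30, Reln 63, Clec2d 104, Hvcn1 175 and Sla 333. With both drugs Rsph1 was at place 2, Tmem229b 5, Reln 6, Hvcn1 8 and Ahnak 20. Sla was far down the order with VE-821 alone. The genes were chosen for falls in these contrasts, so a high place only describes the choice. Places of genes below background, which with both drugs are Rasgrp1, Adam19, Thbd, Sla and Clec2d, depend on the floor of the array and are not given.

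The departure from additivity is the log2 change with both drugs minus the sum of the changes with each. It is built from the contrasts that chose the genes, so it restates those values, lends the grouping no further support and is given with its SE and no test. It was -1.84 ± 0.21 for Reln and -1.41 ± 0.15 for Hvcn1. For Tmem229b it was -1.54 ± 0.19 by the probe that stands for the gene. The second probe gave -0.29 ± 0.23, but it was at the edge of background with both drugs and detected on 1 of those 2 arrays. The floor of the array limits that value. For Clec2d the fitted value was -1.78 ± 0.17, and with the combination at its background bound it was at most -1.48. The departure was 0.39 ± 0.19 for Ahnak and 0.65 ± 0.15 for Rsph1, both measured on all arrays. Thbd was at most 1.62 with the combination at its bound. For Sla, detected on 1 of the 2 RVX2135 arrays, the same setting gave 0.54. That value is not a limit, since a lower RVX2135 level would raise it. For Adam19 and Rasgrp1, below background with RVX2135 already, the array gives no usable departure.

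**Figure D3:**
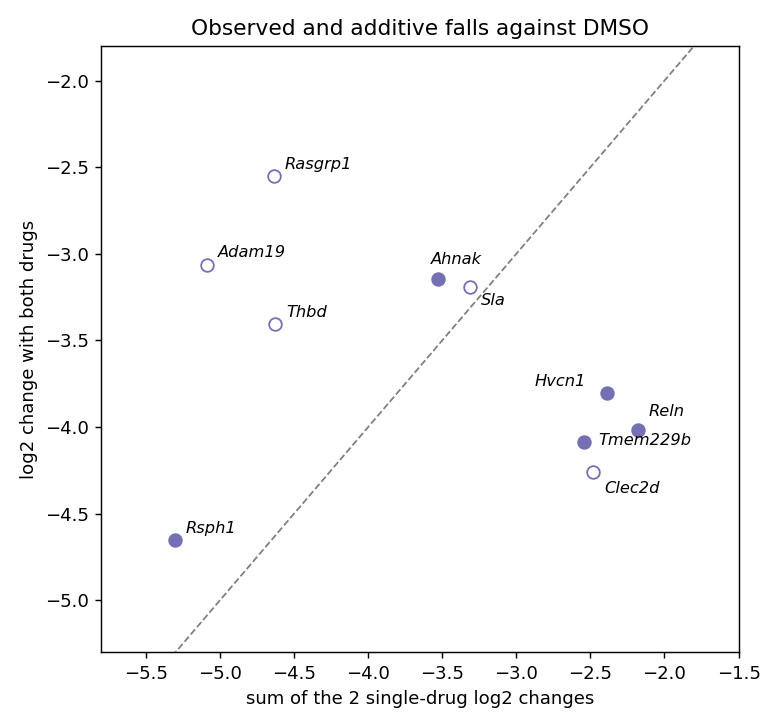
Fitted log2 change with both drugs (y axis) against the sum of the 2 single-drug log2 changes (x axis) for the 10 genes, all against DMSO, with a dashed line where both are equal. Open circles mark genes below background with both drugs. Reln, Hvcn1 and Tmem229b, measured in every group, lie beneath the line, with sums between -2.55 and -2.18 and changes between -4.08 and -3.80, and Clec2d is drawn at its fitted value, which depends on the floor of the array.

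Likeness between genes was measured as the root mean square difference of the 3 log2 changes against DMSO, over the 4 group means and 2 arrays each. It is computed from the changes that chose the genes and is a description, and for a gene below background in any group the distance depends on the array floor. Each gene was taken by the probe that stands for it. Reln and Tmem229b were the closest pair at 0.159, and Hvcn1 was 0.317 from Reln and 0.361 from Tmem229b. The second Tmem229b probe, at the edge of background with both drugs, changed by -2.58 there beside -4.08 for the first and was not used. Neighbours were sought among genes outside the 10, passing over symbols of clone, accession or predicted-gene type. Those nearest to Reln were Lrmp at 0.367 and Cd22 at 0.373, and those nearest to Tmem229b were Lrmp at 0.398 and Cd22 at 0.413. Cd22, an inhibitory co-receptor of B cells, was also nearest to Hvcn1 at 0.276 and to Clec2d at 0.495, each followed by Slamf7 at 0.390 and 0.626. Arhgef18 was nearest to Ahnak (0.320), Thbd (0.465), Rasgrp1 (0.638) and Adam19 (0.674). Camk2b came next for Ahnak at 0.501 and for Rasgrp1 at 0.672, and Osbp2 for Thbd at 0.552 and Adam19 at 0.702. Sla was closest to Tnfrsf13c, the BAFF receptor, at 0.355 and to Osbp2 at 0.381. For Rsph1 the nearest among the genes searched were Fcmr at 0.659 and Vpreb3 at 0.813.

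Genes that act with the 10 were read from lists. In the combination 30.8% of all tested genes were called lower than DMSO and 28.9% higher, with a median log2 change of -0.012. Quantile normalization gives every array the same distribution, so it favours a small median and would hide a change shared by most genes. Around Sla, 8 of 16 tested receptor adaptors and kinases were called lower and 3 higher (list median -0.63). Of these Btk changed by -2.44 ± 0.13 (SE, limma adjusted p = 3.72e-08), Blnk by -2.42 ± 0.12 (SE, limma adjusted p = 1.90e-08) and Vav1 by -1.97 ± 0.10 (SE, limma adjusted p = 1.99e-08), all parts of B cell receptor signalling, with Blnk also among the B lineage markers above. Around Rasgrp1, 3 of 12 Ras regulators and kinases were lower and 5 higher (median -0.05), among them Nras at -0.99, Rapgef1 at -0.81 and the Ras relative Rras at 1.53. Without the second DMSO array 3 of these were called higher. Around Hvcn1, 5 of 14 oxidase and channel genes were lower and 5 higher (median 0.16). The oxidase subunit Ncf4 changed by -2.43, its activator Rac2 by -1.36, and the potassium channel Kcnn4 was at least 4.34-fold lower.

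Surface adhesion and migration genes of lymphocytes, a list not built around any of the 10, had 15 of 21 called lower and 2 higher with both drugs (median -0.87). That was the highest share of falls among these lists, while of the B lineage markers 6 of 6 tested were lower. The list was drawn up with earlier results of these data known. It holds Arhgef18, the gene nearest to Ahnak, Thbd, Rasgrp1 and Adam19 above, so its share is only described. Among the 14 list genes detected on all 8 arrays, 9 were called lower, where 32.6% of the 6460 genes so detected were. In this list Arhgef18 was at least 10.15-fold lower, the Rap1 effector Rassf5 changed by -2.98 and the selectin ligand Selplg by -2.62. With RVX2135 alone 14 of the 21 were lower and 1 higher, beside 15.4% of all tested genes lower and 15% higher. With VE-821 alone 8 were lower and 3 higher, beside 11.7% of all tested genes lower and 12.1% higher. Around Ahnak, 6 of 16 annexin and membrane skeleton genes were lower and 5 higher (median -0.09), including its partner S100a10 at -1.20, Vim at -1.35 and Lgals1 at -1.36. Around Thbd, 2 of 7 were lower and 1 higher: Cd93, a relative of thrombomodulin, changed by -2.91, Hmgb1 by -0.69 and F2r by 0.36, the last lost without the second combination array (limma adjusted p = 0.0549).

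Relatives of Adam19, Reln, Clec2d and Rsph1 were read in the same way. Of 9 tested ADAM sheddases and partners, Rhbdf1 and Hbegf were called higher with both drugs, at least 1.51-fold and at least 1.34-fold, and 7 were not called, while Adam19 was below background. In this list 1 gene was called lower under some alternatives, such as leaving out either VE-821 array. Of 10 reelin pathway genes, 2 were lower and 5 higher, with Fyn at 0.99, Pafah1b1 at 0.93 and Rapgef1 at -0.81. The number called higher was 3 without the first combination array and 3 without the second DMSO array. Of 5 genes of the Clec2 and Klrb1 families, Cd69 (1.62) and Clec2i (1.12) were higher, and Klrb1c was at least 1.19-fold lower, a call lost with the authors' normalized values (limma adjusted p = 0.131) and without the first DMSO array (0.0655). Of 9 radial spoke and axoneme genes, 2 were lower, Rsph9 at -0.93 and Ccdc40 at -0.93, and 2 were higher, with Rfx3 at least 1.52-fold higher.

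**Figure D4:**
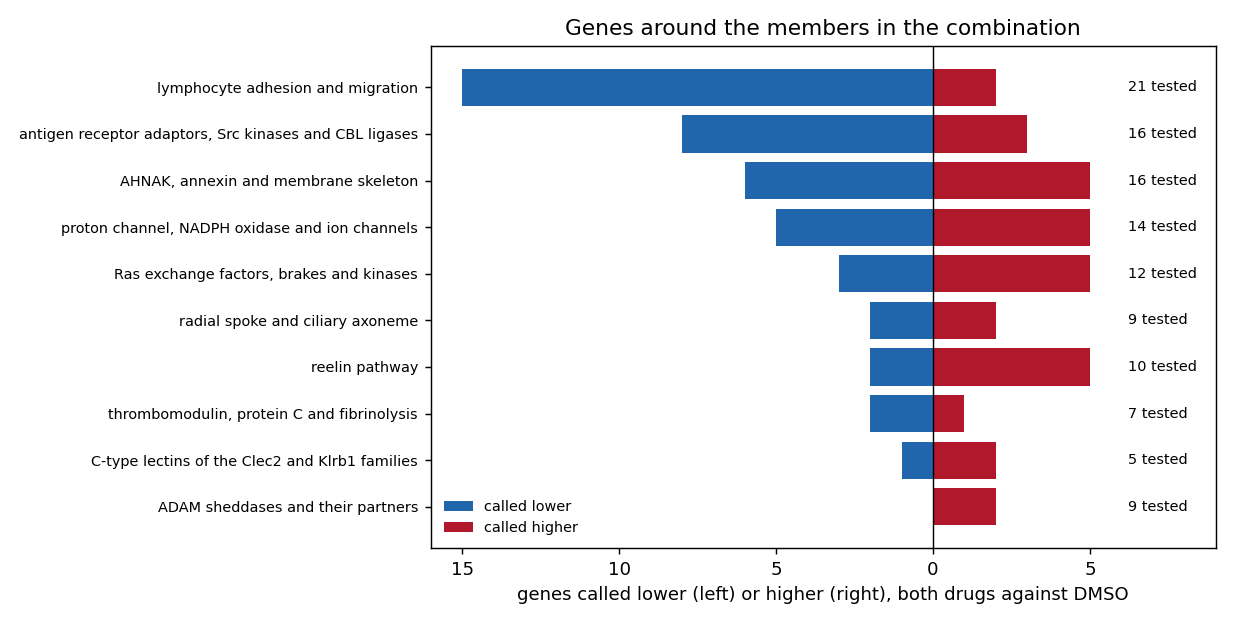
Number of genes called lower (bars to the left) or higher (bars to the right) with both drugs than with DMSO in each list, by limma with Benjamini-Hochberg adjustment over all tested genes. All lists but lymphocyte adhesion and migration were built around the 10 genes. The number tested stands beside each list, and lymphocyte adhesion and migration has the most genes called lower, 15 of 21.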

How the data were processed

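RNA of λ820 cells was hybridised to 8 one-colour Illumina arrays, 2 in each of 4 groups, and the titles in the labels gave each array's group. The authors deposited non-normalized probe intensity values on a linear scale, from which a background had already been subtracted, since values went down to -14.06. Each intensity came with a detection p-value that the authors deposited beside it. The submitters' processing notes name GenomeStudio, with no version. A second deposited table, normalized by the authors with a method not given in the sources used here, ranked the probes of each array as the non-normalized values did (Spearman correlation of 1) and served as an alternative. This table was floored at 10 before log2. The labels name no genome build.

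Probes took symbols from the platform annotation, updated by Entrez identifier through a table of GRCm38.p6 for 23962 of 23978 named probes, while 1719 probes had no symbol. With limma 3.58.1 in R 4.3.3, neqc used the detection p-values to correct the background, with an offset of 16 and quantile normalization, and gave log2 values. Detection at 0.05 on both arrays of some group was required, and 11761 probes met this, of which 709 had no name. The kept probe with the highest mean stood for its gene, which mattered for 2153 genes. The linear model had a mean for each group and used all 8 arrays (4 residual and 7.21 prior degrees of freedom), with two-sided tests and Benjamini-Hochberg adjustment over 7947 genes within each of 6 comparisons. The number of arrays limits the precision, and the median SE of a log2 difference was 0.117. The script was tested on simulated data.

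Where a gene was detected on neither array of a group, its fold is a bound. The brighter group's mean log2 value was then set against the mean over the dim group's arrays of their lowest detected signal, or of the probe's signal where that was higher. Pairs of groups that were both below background have no fold. An adjusted p beside a bound tests the fitted log2 difference, which depends on the floor, and not the bound itself. Second probes of a gene come from the same fit over all kept probes.

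The 10 genes, the gene lists and the tests were chosen with earlier results of these data known. By rule, the text names the 10 genes, up to 3 called members of each list with the smallest adjusted p with both drugs, and the 2 genes most like each of the 10. Alternatives were the authors' values, quantile normalization without background correction, an offset of 50, other detection filters, every kept probe, the replicate number as a block, the 2 groups alone, and leaving out each array.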

Additional observations from a re-analysis of the deposited data

How the results depend on the processing

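All 465 alternative values of the 10 genes against DMSO kept a negative sign. The genes were chosen for falls on these same arrays, which favoured that sign, so nothing is read from it. Sizes of genes near background depended on the floor. With both drugs Clec2d ran from -5.27 with the authors' normalized values to -2.98 with an offset of 50, and Sla from -4.04 to -1.98. Measured falls of dim signals moved with the same settings, Hvcn1 from -4.43 to -3.00 and Rsph1 from -5.12 to -3.92. A larger offset gives smaller folds where a signal is dim, so the folds above depend on the offset of 16. Reln, bright on every array, stayed between -4.18 and -3.86. Departures from additivity, for which the alternatives were chosen after seeing the data, ranged from -2.03 to -1.65 for Reln, -1.95 to -0.83 for Hvcn1, -1.91 to -1.03 for Tmem229b, 0.39 to 0.87 for Rsph1 and 0.17 to 0.56 for Ahnak. For Clec2d, below background with both drugs, the fitted values ranged from -2.68 to -0.81. That of Sla was -0.30 with quantile normalization without background correction and between -0.09 and 0.33 with 1 array left out, and the cause was not tested. Calls between treatments were lost under some alternatives for Sla and Ahnak, as given above with their values. Requiring detection on all arrays leaves out Sla, Thbd, Adam19, Rasgrp1 and Clec2d by construction.

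With 1 array left out, where the lone array is assumed to vary like the other groups, genes called with RVX2135 against DMSO numbered 1426 to 2493 beside 2420, with VE-821 against DMSO 931 to 1975 beside 1891, and between RVX2135 and VE-821 1359 to 2198 beside 2109. Counts that shrank by over 1.5 times were, for RVX2135, 1475 without RVX2135 replicate 2 and 1426 without DMSO replicate 1. For VE-821 they were 931 (VE-821 replicate 2 left out), 1016 (DMSO replicate 1) and 1175 (DMSO replicate 2). Between the single drugs they were 1399 (RVX2135 replicate 2 left out), 1359 (VE-821 replicate 1) and 1369 (VE-821 replicate 2). With the replicate number as a block, the counts were 2481 for RVX2135, 1976 for VE-821 and 4825 for both drugs against DMSO, the last beside 4747. Deviations of same-numbered arrays in different groups correlated at -0.031 to 0.178, so the numbers were not taken as pairs.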
